A study of Homo sapiens with 12 samples.

Results

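The sodium pump (Na,K-ATPase) and the calcium-activated chloride channel ANO1 were followed through 5 genes, found by their symbols in the deposited count table: the pump's beta subunit genes ATP1B1 and ATP1B3, the pump regulator genes FXYD3 and FXYD5, and ANO1. All 5 were among the 16946 genes tested, of 58735 lines in the table. Poly(A) RNA was sequenced from the lines CAL-27 and SCC-15, both derived from human squamous carcinomas of the mouth. Each line has a control group (shControl, genotype WT) and a group with knockdown of the spindle checkpoint kinase TTK (shTTK), with 3 libraries in each of the 4 groups; all are labelled untreated and batch 1. The labels call the controls both shControl and wild type, so they leave unclear if the controls carried a hairpin, and they give neither the number of hairpins nor whether the replicates were separate cultures. P-values therefore measure the spread between these libraries, which may be technical.

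The Na,K-ATPase exports sodium and imports potassium at the cost of ATP. Its alpha subunit binds the ions and ATP, and its beta subunit is a glycoprotein that brings the alpha subunit to the plasma membrane and, in epithelia, also takes part in contacts between neighbouring cells. FXYD proteins are small single-span proteins that bind the pump and tune its ion affinity. FXYD3 (Mat-8) and FXYD5 (dysadherin) are the members best known from carcinomas. ANO1 (TMEM16A, DOG1) opens to intracellular calcium and lets chloride pass, and its gene lies in a chromosome segment, 11q13, that is often amplified in squamous carcinomas of the head and neck.

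The genes were chosen by measured values: ATP1B1 was noted for being lower, and ANO1 for being higher, with TTK knockdown in both lines. The knockdown values of all 5 genes are therefore given as a description with no test. The comparison between the control groups of the lines was not used in that choice and was tested. Levels are CPM (counts scaled to a common library size), scaled between libraries by the trimmed mean of M-values (TMM). Differences are log2 fold changes from edgeR.

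The promoters shown are those of the 3 genes whose libraries moved the same way in both lines, with the 250 bases before the RefSeq start on GRCh38.p14, plus strand, 5′ to 3′. Capitals mark GC boxes (GGGCGG or CCGCCC) and CCAAT boxes (CCAAT or ATTGG). ATP1B1 (chr1:169106440-169106689) was lower with knockdown, ANO1 (chr11:69985657-69985906) and FXYD3 (chr19:35117750-35117999) were higher.
ATP1B1: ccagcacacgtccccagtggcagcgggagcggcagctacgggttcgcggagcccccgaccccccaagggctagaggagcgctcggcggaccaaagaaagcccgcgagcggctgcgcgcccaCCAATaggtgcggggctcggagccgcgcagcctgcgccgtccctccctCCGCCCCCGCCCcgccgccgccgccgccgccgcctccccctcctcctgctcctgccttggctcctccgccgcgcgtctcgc
ANO1: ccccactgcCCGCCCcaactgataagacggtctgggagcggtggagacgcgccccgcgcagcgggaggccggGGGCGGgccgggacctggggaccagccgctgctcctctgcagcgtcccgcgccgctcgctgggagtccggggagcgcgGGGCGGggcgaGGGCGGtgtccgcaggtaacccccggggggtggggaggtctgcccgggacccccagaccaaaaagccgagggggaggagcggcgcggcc
FXYD3: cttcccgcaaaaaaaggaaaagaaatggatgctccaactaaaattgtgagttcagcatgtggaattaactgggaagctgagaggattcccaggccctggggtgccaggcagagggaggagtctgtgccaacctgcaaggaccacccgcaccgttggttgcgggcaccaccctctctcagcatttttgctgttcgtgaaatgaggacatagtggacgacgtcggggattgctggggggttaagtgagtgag
The ATP1B1 window holds 2 GC boxes and 1 CCAAT box, the ANO1 window 4 GC boxes and no CCAAT box, and the FXYD3 window neither. None of the 3 windows holds a TATA box (TATAAA or TTTATA). Over 35116 RefSeq windows of the same length, searched on both strands, 42.6% hold a GC box, 32% a CCAAT box and 10.7% a TATA box. G and C make up 77.6% of the ATP1B1 window, 78.0% of the ANO1 window and 53.6% of the FXYD3 window. The RefSeq start of ANO1 lies 92.4 kb before the start of the gene in GENCODE release 29. The RefSeq starts of ATP1B1 and FXYD3 lie 0.993 kb and 2.12 kb after their GENCODE gene starts. The ATP1B1 and FXYD3 windows therefore lie within the gene spans given below. The counts are sums per gene and do not tell transcripts from different starts apart.

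Total counts per library ranged from 16176655 to 18484112. All shTTK libraries had less TTK than all controls of the same line, at 68.6% of the control level in CAL-27 and 43.1% in SCC-15. The 8 squamous epithelial markers were all at 1 CPM or more in every group. Their summed level was 2488 to 2652 CPM in CAL-27 control and 4354 to 4433 CPM in CAL-27 shTTK libraries, against 7395 to 7726 CPM and 6880.4 to 6911 CPM in SCC-15. With knockdown, 5 of the 8 rose and 2 fell in CAL-27 (11.6% and 15.7% over all genes tested). In SCC-15, 2 rose and 4 fell (13.4% and 14.3%). The basal keratin gene KRT14 went from 3.44 to 73.2 CPM in CAL-27, but from 763 to 370 CPM in SCC-15. None of 5 leukocyte markers reached 1 CPM, while 2 of 4 endothelial markers did in CAL-27 and none in SCC-15, and 1 to 3 of 6 fibroblast markers did. KDR was at 0 in every group, PTPRC and DCN in both CAL-27 groups, and CD3E and COL1A2 in both SCC-15 groups. COL3A1 was at 0 in CAL-27 control, and LYZ in CAL-27 shTTK and SCC-15 control libraries. The summed endothelial level was 102 to 109.7 CPM in CAL-27 control and 72.4 to 74.3 CPM in CAL-27 shTTK libraries, nearly all of it CDH5, and 1.47 to 2.25 CPM in SCC-15. The summed fibroblast level was 31.9 to 37.6, 41.2 to 42.1, 21.1 to 23.0 and 20.6 to 22.7 CPM in CAL-27 control, CAL-27 shTTK, SCC-15 control and SCC-15 shTTK libraries, and the leukocyte level at most 0.828 CPM. The SCC-15 libraries with number 1 differed more from their group than the rest did, with a mean chi-square per gene of 5.62 and 5.96 for the control library and 3.07 and 3.78 for the shTTK library, against 1.98 and 1.95 between the other two. The median over genes, divided by that for counting noise alone, differed less. It was 1.923 and 2.111 for the control library and 2.195 and 2.63 for the shTTK library, against 1.757 and 1.767. In CAL-27 control libraries it was 2.067 to 2.139. Mitochondrially encoded genes took 2.94% to 3.86% of the counts in SCC-15 control and 2.35% to 2.69% in SCC-15 shTTK libraries, and 4.24% to 4.32% in CAL-27 control and 4.47% to 4.68% in CAL-27 shTTK libraries. In SCC-15 control libraries 1 to 3 this share was 3.86%, 3.01% and 2.94%. The groups did not overlap in either line, with the shTTK libraries lower in SCC-15 and higher in CAL-27. The part of this share and of the markers in the results was not tested. In bulk RNA, fewer cells of a kind and less RNA per cell cannot be told apart.

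**Figure D1:**
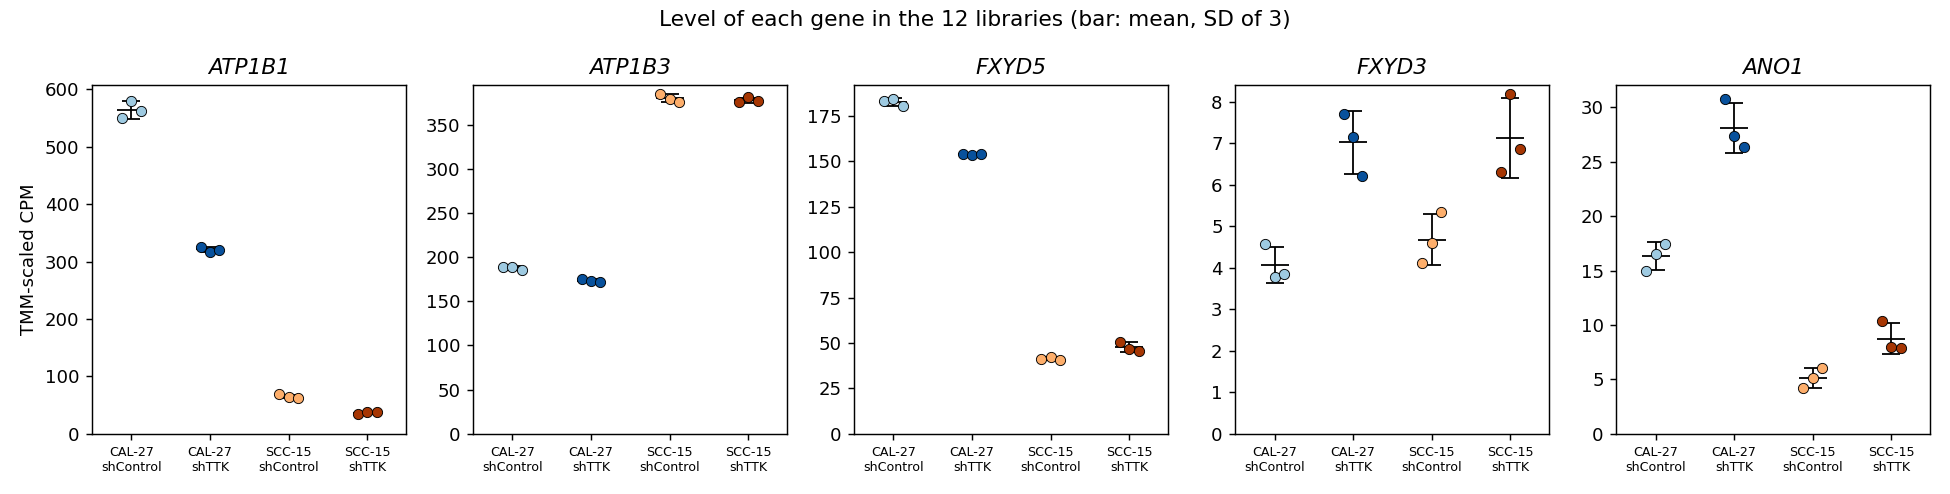
TMM-scaled CPM of the 5 genes in each library (points), with the mean and SD of the 3 libraries of a group (bars); each panel has its own linear axis from 0. ATP1B1 is lower and FXYD3 and ANO1 are higher in all shTTK libraries than in the control libraries of the same line, and FXYD5 goes down in CAL-27 and up in SCC-15.

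ATP1B1 encodes the beta 1 subunit, the usual beta subunit of epithelial cells (ENSG00000143153.12, chromosome 1, 169105697 to 169132722, plus strand, GRCh38). In CAL-27 its level was 549.5, 580.2 and 562 CPM in control libraries 1 to 3 and 325, 317 and 321 CPM in shTTK libraries 1 to 3. The highest shTTK library thus lay far below the lowest control library. Group means were 564 ± 15.5 and 321 ± 4.04 CPM (SD, n = 3). This is -0.81 ± 0.033 (SE) as a log2 fold change, which leaves 56.9% of the control level.

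In SCC-15 the level of ATP1B1 was 68.5, 64.4 and 62.4 CPM in the control and 34.9, 37.9 and 37.2 CPM in the shTTK libraries. Again the groups did not overlap. The means were 65.1 ± 3.12 and 36.6 ± 1.58 CPM (SD, n = 3). Here the log2 fold change was -0.83 ± 0.046, which leaves 56.3%. Subtracting the CAL-27 from the SCC-15 value gave -0.02, with a 95% interval from -0.13 to 0.09.

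Between the control groups, ATP1B1 was 8.66-fold lower in SCC-15 than in CAL-27 (log2 fold change -3.11 ± 0.038, edgeR adjusted p = 5.26e-71), and its level in SCC-15 control libraries was also below that in CAL-27 shTTK libraries. The 3′ end of ATP1B1 overlaps NME7, a gene on the opposite strand, by the annotation. NME7 had 176 to 284 counts per library against 598 to 10582 for ATP1B1, and its log2 fold changes with knockdown were 0.00 ± 0.11 in CAL-27 (edgeR adjusted p = 0.993) and -0.05 in SCC-15 (0.781). On the other side, the nearest protein-coding gene tested was XCL1, a chemokine gene, at 1.37 to 1.91 CPM, which was not called in either line (edgeR adjusted p = 0.968 and 0.944).

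ATP1B3 encodes the beta 3 subunit (ENSG00000069849.10, chromosome 3, 141876124 to 141926514, plus strand). In CAL-27 it was at 188, 189 and 186 CPM in the control and 175, 173 and 172 CPM in the shTTK libraries. Every shTTK library lay below every control library, but by little. The log2 fold change was -0.11 ± 0.033, which leaves 92.4% of the control level.

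In SCC-15, ATP1B3 was at 384, 379 and 375 CPM in the control and 376, 381 and 376 CPM in the shTTK libraries, so the groups overlapped. The log2 fold change was -0.01 with a 95% interval from -0.07 to 0.05. Between the control groups ATP1B3 was 2.02-fold higher in SCC-15 (log2 fold change 1.02 ± 0.032, edgeR adjusted p = 4.65e-43), opposite in direction to ATP1B1. ATP1B3-AS1, an antisense gene within its span, had 3 to 35 counts per library against 2801 to 6735 for ATP1B3. Its neighbours were RNF7, a ubiquitin ligase subunit, which fell in CAL-27 (log2 fold change -0.15, edgeR adjusted p = 0.0358), and TFDP2, a partner of E2F factors, which rose in CAL-27 (0.14, edgeR adjusted p = 0.0165) and SCC-15 (0.12, 0.0466). The RNF7 libraries overlapped, and its call was lost by DESeq2 (0.0799), by limma-voom (0.0649), with CAL-27 alone (0.0691), with all genes that have a read (0.0948), and without CAL-27 control library 1 or 2, any CAL-27 shTTK library, SCC-15 control library 2 or 3, or SCC-15 shTTK library 1 or 2 (0.0592 to 0.414). That of TFDP2 went without control library 2 (0.0972) or shTTK library 2 (0.131) in CAL-27, and in SCC-15 by DESeq2 (0.0534), by limma-voom (0.0544), without both libraries numbered 1 (0.183), and without control library 1 (0.238), shTTK library 2 (0.0967) or shTTK library 3 (0.113) alone. With the replicate block it was at 0.0529.

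Per kilobase of exon, the scale on which different genes can be set side by side, the beta subunits had opposite proportions in the lines. In CAL-27 control libraries ATP1B1 stood at 190.3 ± 5.22 and ATP1B3 at 72.6 ± 0.722 CPM per kilobase (SD, n = 3), and in SCC-15 control libraries ATP1B1 stood at 22 ± 1.05 and ATP1B3 at 147 ± 1.74 CPM per kilobase. ATP1B1 made up 71.8%, 72.8% and 72.5% of the summed beta level in the CAL-27 control libraries and 61.8%, 61.6% and 61.9% in the shTTK libraries. In SCC-15 it made up 13.5%, 12.9% and 12.7% in the control and 7.49%, 7.98% and 7.93% in the shTTK libraries. No library of one group reached the range of another.

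The summed beta level was 263 ± 5.46 CPM per kilobase in CAL-27 control and 176 ± 1.88 in CAL-27 shTTK libraries, and 169 ± 2.79 and 159 ± 1.56 in SCC-15 (SD, n = 3). The loss was larger in CAL-27, where ATP1B1 is the larger part of the sum; the difference in loss was not tested. These sums contain the ATP1B1 values that chose the gene and are a description.

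The remaining beta subunit genes were below the count filter, with 13 counts for ATP1B2 and 0 for ATP1B4 over the 12 libraries together.

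**Figure D2:**
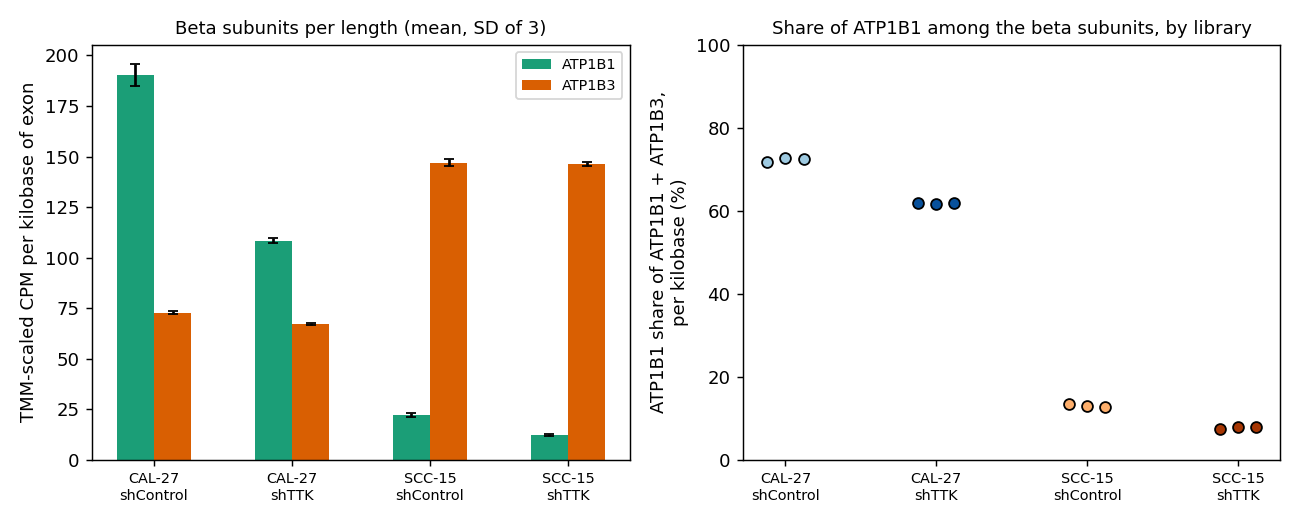
Left, level of ATP1B1 and ATP1B3 per kilobase of exon in the 4 groups (bars: mean, error bars: SD of 3 libraries; linear axis from 0). Right, share of ATP1B1 in the summed ATP1B1 and ATP1B3 level of each library in percent; the shares lie between 71.8% and 72.8% in CAL-27 control and between 12.7% and 13.5% in SCC-15 control libraries, and lower in the shTTK libraries of each line.

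FXYD5 encodes dysadherin, a pump regulator that lowers cell adhesion when overproduced (ENSG00000089327.14, chromosome 19, 35154730 to 35169883, plus strand). In CAL-27 it was at 183, 184 and 180.2 CPM in the control and 154, 153 and 154 CPM in the shTTK libraries. FXYD5 had a log2 fold change of -0.25 ± 0.038 there, which leaves 84.2%. In SCC-15 it was at 41.0, 42.4 and 40.5 CPM in the control and 50.7, 46.7 and 45.7 CPM in the shTTK libraries.

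The log2 fold change of FXYD5 in SCC-15 was 0.21 ± 0.050, or 115% of the control level, and 0.16 ± 0.058 without both libraries numbered 1. FXYD5 was thus lower with knockdown in all CAL-27 libraries and higher in all SCC-15 libraries, and it was the only one of the 5 genes with groups that separated in opposite directions. The SCC-15 value exceeded that of CAL-27 by 0.45 ± 0.063, a value given with no test. Between the control groups, FXYD5 was 4.42-fold lower in SCC-15 (log2 fold change -2.14 ± 0.044, edgeR adjusted p = 1.92e-55).

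FXYD3 encodes Mat-8, a regulator first found in mammary tumours (ENSG00000089356.18, chromosome 19, 35115879 to 35124324, plus strand). It had only 62 to 142 counts per library. In CAL-27 it was at 4.58, 3.78 and 3.84 CPM in the control and 7.70, 7.16 and 6.21 CPM in the shTTK libraries. In SCC-15 it was at 4.11, 4.59 and 5.34 CPM in the control and 6.30, 8.18 and 6.87 CPM in the shTTK libraries. In both lines every shTTK library was above every control library.

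The log2 fold changes of FXYD3 were 0.79 ± 0.16 in CAL-27 and 0.60 ± 0.16 in SCC-15, or 1.73-fold and 1.52-fold. FXYD3 was the 1 gene of the 5 that was not called between the control groups of the lines, with overlapping libraries and a log2 fold change of 0.20 (95% interval from -0.14 to 0.54, edgeR adjusted p = 0.280). A protein-coding readthrough gene of the annotation, AC020907.6, spans FXYD3 on the same strand. It had 0 counts in every library, and how reads that fit both genes were counted is not given in the sources used here.

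Both FXYD genes lie in a cluster on chromosome 19 with FXYD1 and FXYD7, while the other 5 FXYD genes (FXYD1, FXYD2, FXYD4, FXYD6 and FXYD7) were below the filter, with 0 to 16 counts over the 12 libraries. Of 17 other genes of that region, 8 were tested. In CAL-27, 1 rose and 2 fell (against 11.6% and 15.7% of all genes tested), and in SCC-15, 3 rose and 0 fell (13.4% and 14.3%). Their median log2 fold changes were -0.10 and 0.17, against -0.01 and 0.00 over all genes tested. TMEM147, a membrane protein of the translocon and not called in CAL-27 (-0.05, edgeR adjusted p = 0.567), rose in SCC-15 by 0.37 (edgeR adjusted p = 7.61e-08). GRAMD1A, a sterol transporter, rose by 0.32 in CAL-27 and 0.24 in SCC-15 (edgeR adjusted p = 0.0096 and 0.00326).

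These calls were few and partly unstable. GRAMD1A had overlapping libraries in CAL-27 and missed the threshold when control library 3 (0.150) or shTTK library 2 (0.0815) was left out, and in SCC-15 without both libraries numbered 1 (0.0651). USF2, a basic helix-loop-helix factor, fell by 0.14 on the log2 scale in CAL-27 (edgeR adjusted p = 0.0096), but not when control library 1 (0.125) or shTTK library 1 (0.162) was left out or with all genes that have a read (0.0510). CD22, a B cell lectin at 1.09 to 3.17 CPM that is named here because its values were seen, fell by 0.99 in CAL-27 and rose by 1.47 in SCC-15 (edgeR adjusted p = 0.0088 and 2.38e-05). The count of 1 higher gene in CAL-27 was 0 without CAL-27 control library 3 or shTTK library 2, and 2 without CAL-27 control library 2, CAL-27 shTTK library 1 or 3, SCC-15 control library 2 or 3, or SCC-15 shTTK library 1 or 2. That of 2 lower genes was 1 without CAL-27 control library 1 or 2 or shTTK library 1 or 3, and in SCC-15 the count of 0 lower genes was 1 without shTTK library 3. Of the genes next to FXYD3 and FXYD5, LGI4, which lies between them, was below 1 CPM on average in each group and was not called in either line (edgeR adjusted p = 0.235 and 0.940). LSR, next after FXYD5 and a receptor of tricellular junctions, had log2 fold changes of 0.09 in CAL-27 (edgeR adjusted p = 0.0629) and 0.10 in SCC-15 (0.105). LSR was called higher in CAL-27 by limma-voom (0.0492), with CAL-27 alone (0.0132), with the 1 CPM filter (0.0393), with all genes that have a read (0.0488), and without CAL-27 control library 2, CAL-27 shTTK library 1 or 3, SCC-15 control library 2 or 3, or SCC-15 shTTK library 1 or 2 (0.0131 to 0.0498).

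ANO1 (ENSG00000131620.17, chromosome 11, 70078302 to 70189528, plus strand) was measured with 73 to 499 counts per library. In CAL-27 it was at 15, 16.6 and 17.5 CPM in the control and 30.7, 27.3 and 26.3 CPM in the shTTK libraries. The groups lay well apart. The log2 fold change was 0.78 ± 0.097, or 1.72-fold.

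In SCC-15, ANO1 was at 4.17, 5.11 and 6.04 CPM in the control and 10.4, 7.95 and 7.88 CPM in the shTTK libraries. The groups did not overlap, but the libraries numbered 1, which stood apart in other genes too, were the lowest control and the highest shTTK library. The log2 fold change was 0.77 ± 0.13, or 1.71-fold, and 0.51 ± 0.15 without both libraries numbered 1. The SCC-15 value less that of CAL-27 was -0.01, with a 95% interval from -0.36 to 0.34. Between the control groups ANO1 was 3.20-fold lower in SCC-15 (log2 fold change -1.68 ± 0.12, edgeR adjusted p = 6.22e-21). ANO1-AS1 and AP000879.2, which overlap ANO1, had at most 2 counts in any library.

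The order of levels was CAL-27 shTTK, CAL-27 control, SCC-15 shTTK and SCC-15 control for ANO1, with no overlap between neighbours in that order. For ATP1B1 it was CAL-27 control, CAL-27 shTTK, SCC-15 control and SCC-15 shTTK, and for FXYD5 CAL-27 control, CAL-27 shTTK, SCC-15 shTTK and SCC-15 control, also without overlap. For ATP1B3 the 2 SCC-15 groups overlapped at the top, followed by CAL-27 control and CAL-27 shTTK. For FXYD3 the 2 shTTK groups overlapped with each other, and so did the 2 control groups.

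Counted over the genes, all 5 had groups that did not overlap in CAL-27, where this held for 38.4% of all genes tested, and 4 of 5 in SCC-15, where it held for 38.9%. In CAL-27, 3 were lower (21.3% of all genes tested) and 2 higher (17.1%), and in SCC-15, 1 was lower (19.6%) and 3 were higher (19.3%). By edgeR, 27.3% of all genes tested were called with knockdown in CAL-27 and 27.7% in SCC-15. The choice of the genes used these comparisons, so nothing is read from the counts. Over all genes tested, 4.01% were called lower and 2.87% higher with knockdown in both lines. Between the control groups, 4 of 5 were called, against 76.0% of all genes tested, with 3 lower (38.2%) and 1 higher (37.8%) in SCC-15. The same 4 had libraries that did not overlap, as did 77.3% of all genes tested (39.1% lower and 38.2% higher), so that a difference between the lines is common among all genes.

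**Figure D3:**
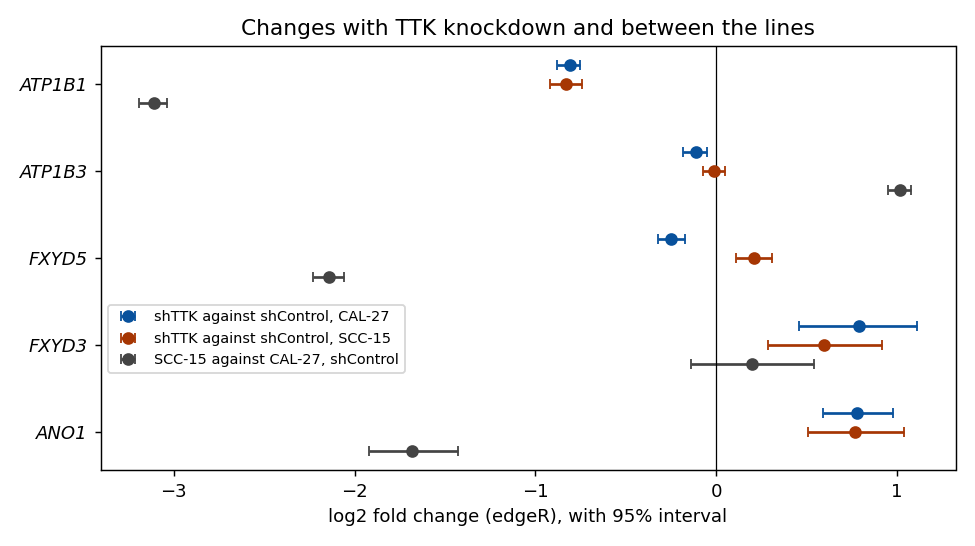
Log2 fold changes of the 5 genes with 95% intervals from edgeR, for knockdown in CAL-27, knockdown in SCC-15 and SCC-15 against CAL-27 control libraries; the axis is linear in log2 and 0 means no difference. The knockdown values of ATP1B1 (-0.81 and -0.83) and of ANO1 (0.78 and 0.77) lie over each other in the 2 lines, whereas those of FXYD5 lie on opposite sides of 0. ATP1B1 and ANO1 were chosen for moving the same way in both lines, so the knockdown intervals are a description and no test. Without both SCC-15 libraries numbered 1, ANO1 was at 0.51 in SCC-15.

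Among the other anoctamins, the family of chloride channels and lipid scramblases to which ANO1 belongs, 6 of 9 were tested. In CAL-27, 1 rose and 2 fell (11.6% and 15.7% over all genes tested), and in SCC-15, 2 rose and 0 fell (13.4% and 14.3%). ANO9 rose in both lines, from 28.5 ± 2.20 to 38.5 ± 6.92 CPM in CAL-27 (SD, n = 3; log2 fold change 0.44 ± 0.093, edgeR adjusted p = 0.000847) and from 31.1 ± 2.09 to 42.9 ± 0.758 CPM in SCC-15 (0.46, edgeR adjusted p = 0.000303), although its CAL-27 groups overlapped. ANO6, the calcium-dependent scramblase of the plasma membrane, fell in CAL-27 from 163 ± 1.76 to 125 ± 4.72 CPM (-0.39 ± 0.040, edgeR adjusted p = 4.19e-13) and was at -0.07 in SCC-15 (0.287). The difference between these ANO6 changes was 0.32 (edgeR adjusted p = 2.05e-05), in a test that called 25.4% of all genes tested (13.3% higher and 12.1% lower in SCC-15).

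ANO2, an olfactory chloride channel and named here because its values were seen, fell in CAL-27 from 0.939 ± 0.293 to 0.283 ± 0.277 CPM (edgeR adjusted p = 0.0139). The count of 2 lower anoctamins was 1 by DESeq2, with the 1 CPM filter, and without CAL-27 control library 1 or shTTK library 1. ANO7 rose in SCC-15 from 1.17 ± 0.106 to 2.07 ± 0.691 CPM (edgeR adjusted p = 0.0143), but not by limma-voom (0.0763) or when control library 3 (0.0539), shTTK library 1 (0.218) or both libraries numbered 1 (0.276) were left out. ANO8 (0.17, edgeR adjusted p = 0.0735, in CAL-27 and 0.13, 0.145, in SCC-15) and ANO10 (-0.10, 0.500, and 0.04, 0.834) were not called in either line. ANO8 was called higher in CAL-27, which makes the count of 1 higher anoctamin there 2, with CAL-27 fitted alone and without CAL-27 control library 3, SCC-15 control library 2 or 3, or SCC-15 shTTK library 1 or 2. It was also called in SCC-15 without shTTK library 3 (0.0426).

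ANO1's neighbours on 11q13 were lower in SCC-15 than in CAL-27 control libraries without exception among those tested, while their knockdown values went several ways. Of 11 other genes of the region, 8 were tested, and all 8 were lower in SCC-15, where 38.2% of all genes tested were. Their median log2 fold change was -0.82, against -0.01 over all genes tested. The FXYD region on chromosome 19 had a similar median, -0.79, over its 8 tested genes other than FXYD3 and FXYD5. Of those, 6 were lower and 2 higher in SCC-15. On 11q13, CTTN, the actin-binding cortactin and a recurrent target of 11q13 amplification, was at -0.82 ± 0.032 (edgeR adjusted p = 6.84e-37). PPFIA1, a liprin, was at -0.87 (1.29e-31), CCND1, cyclin D1, at -0.56 (2.22e-21), and FADD, a death receptor adaptor, at -0.63 (9.15e-11). ANO1, at -1.68, differed more between the lines than each of its tested 11q13 neighbours except SHANK2, a scaffold protein (-3.21, edgeR adjusted p = 5.24e-20). SHANK2 was at 0.617 CPM in SCC-15 control libraries. Copy number was not measured in these libraries.

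With knockdown, 1 of the 8 other tested 11q13 genes rose and 3 fell in CAL-27 (11.6% and 15.7% over all genes tested). In SCC-15, 2 rose and 1 fell (13.4% and 14.3%). SHANK2 rose in CAL-27 from 5.75 ± 1.12 to 12.3 ± 0.303 CPM (log2 fold change 1.10 ± 0.16, edgeR adjusted p = 1.94e-08). In SCC-15 SHANK2 was at 0.51 ± 0.35 and was not called (edgeR adjusted p = 0.307). MYEOV fell in CAL-27 from 16.2 ± 0.900 to 8.33 ± 0.711 CPM (-0.97 ± 0.12, edgeR adjusted p = 2.04e-10). CCND1 fell in CAL-27 from 232 ± 11.6 to 176 ± 8.38 CPM (-0.40, edgeR adjusted p = 5.75e-14) and rose in SCC-15 from 158 ± 2.48 to 191 CPM (0.27, 3.28e-08).

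FADD, the nearest gene after ANO1, fell in CAL-27 by 0.24 on the log2 scale (edgeR adjusted p = 0.0139), which needed control library 1 (0.0522 without it) and shTTK library 1 (0.101) and was not called with all genes that have a read (0.0507). LTO1, the nearest tested gene before ANO1, was at -0.02 in CAL-27 (edgeR adjusted p = 0.904) and 0.01 in SCC-15 (0.947), and CTTN at -0.07 (0.0895) and -0.01 (0.906). In SCC-15, PPFIA1 rose by 0.13 (edgeR adjusted p = 0.0162) and MYEOV fell by 0.42 (0.0115). PPFIA1 missed the threshold when control library 1 or 3 or shTTK library 1 or 2 was left out (0.0546 to 0.0735), or both libraries numbered 1 (0.166), which leaves 1 higher gene. MYEOV missed it when control library 2 (0.0565) or shTTK library 3 (0.140) was left out, which leaves 0 lower genes.

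**Figure D4:**
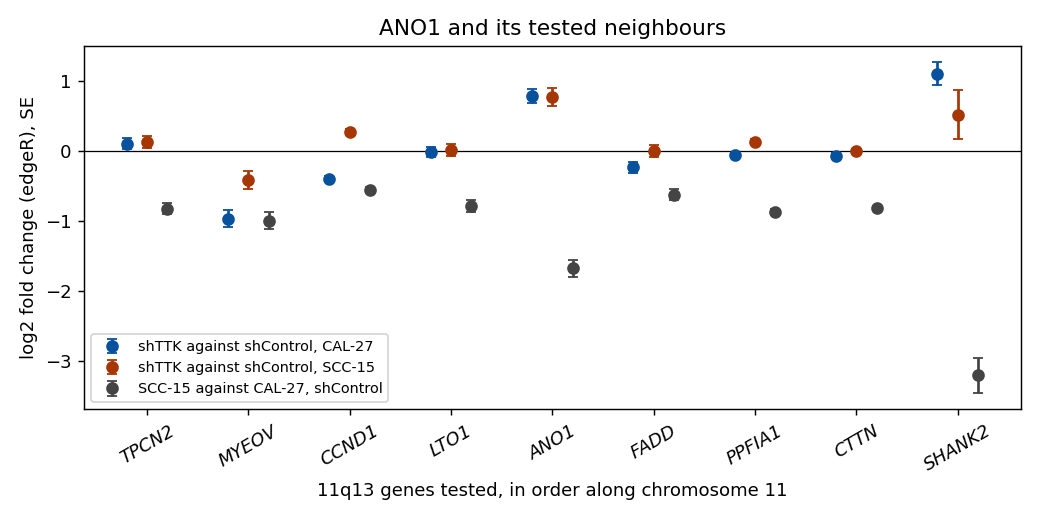
Log2 fold changes (points, with SE) of ANO1 and the 8 other tested genes of 11q13, in their order along chromosome 11 and evenly spaced, for knockdown in each line and for SCC-15 against CAL-27 control libraries. All 9 genes are lower in SCC-15 than in CAL-27 control libraries. With knockdown, ANO1 is at 0.78 and 0.77, and its nearest neighbours LTO1 and FADD are at or below 0.01. SHANK2 is at 1.10 in CAL-27 and 0.51 ± 0.35 in SCC-15.

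Of 22 tested chloride channels and cotransporters other than the anoctamins, 3 rose and 6 fell in CAL-27 (11.6% and 15.7% over all genes tested), and 2 rose and 7 fell in SCC-15 (13.4% and 14.3%). Their median log2 fold changes were -0.17 and -0.03, against -0.01 and 0.00 over all genes tested. SLC12A7, a potassium-chloride cotransporter that removes chloride from cells, fell in both lines, from 339 ± 14.5 to 195 ± 4.40 CPM in CAL-27 (SD, n = 3; -0.80 ± 0.035, edgeR adjusted p = 8.24e-32) and from 72.6 ± 2.12 to 60.5 ± 2.15 CPM in SCC-15 (-0.26, 1.36e-06). Its relative SLC12A4 fell in CAL-27 by 0.60 on the log2 scale (edgeR adjusted p = 8.7e-15) and was at 0.04 in SCC-15 (0.732). SLC12A2, which loads cells with sodium, potassium and chloride, fell in CAL-27 from 60.5 ± 4.55 to 44.9 ± 5.06 CPM (-0.43, edgeR adjusted p = 2.34e-05) and is named because its values were seen.

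Subunits of the volume-regulated anion channel went in different directions. LRRC8C rose in CAL-27 by 0.52 and LRRC8D by 0.25 (edgeR adjusted p = 0.000513 and 9.4e-05). In SCC-15 they were at -0.05 and 0.08 and were not called (edgeR adjusted p = 0.77 and 0.234). LRRC8A, the obligatory subunit, named because its values were seen, fell in CAL-27 by 0.23 and in SCC-15 by 0.37 (edgeR adjusted p = 8.96e-07 and 1.89e-13). In SCC-15, CLCN3 and CLCN4, chloride-proton exchangers of endosomes, each fell by 0.44 (edgeR adjusted p = 1.79e-09 and 0.00958), while their relatives CLCN5 and CLCN6 rose by 0.37 and 0.18 (0.00029 and 0.0314). In CAL-27, CLCN3, CLCN4, CLCN5 and CLCN6 were at -0.03, -0.16, -0.07 and -0.13, and none was called (edgeR adjusted p = 0.145 to 0.744). In SCC-15, CLCN4 was no longer called when control library 3 (0.0548) or shTTK library 3 (0.0537) was left out. CLCN6 was not called when control library 1 (0.0925), 2 (0.0547) or 3 (0.0510) or shTTK library 1 (0.137) was left out, each of which leaves 1 higher gene, or without both libraries numbered 1 (0.254), where 2 genes were still called higher. Without control library 3 the count of 7 lower genes was 4, and with all genes that have a read the count of 3 higher genes in CAL-27 was 5.

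Of 19 tested genes of sodium entry and its control, 1 rose and 4 fell in CAL-27, or 26.3%, near the 27.3% of all genes tested. In SCC-15, 7 rose and 3 fell, or 52.6% against 27.7%, and the difference between the lines was not tested. The median log2 fold changes of these genes were -0.07 in CAL-27 and 0.07 in SCC-15. SLC5A3, the sodium-dependent inositol transporter, fell from 257 ± 3.83 to 101 ± 4.64 CPM in CAL-27 (SD, n = 3; -1.35 ± 0.041, edgeR adjusted p = 3.32e-42) and from 50.4 ± 2.58 to 36.2 ± 2.71 CPM in SCC-15 (-0.48, 9.55e-12). SGK1, a kinase that raises sodium channel and pump activity, fell in CAL-27 by 0.27 and rose in SCC-15 by 0.46 (edgeR adjusted p = 2.62e-07 and 1.89e-11). SCNN1A, the alpha subunit of the epithelial sodium channel, was at 157 CPM in both CAL-27 groups (edgeR adjusted p = 0.970) and rose in SCC-15 from 26.7 ± 2.24 to 37.2 ± 1.79 CPM (0.48, 2.93e-10).

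SLC4A7, a sodium-bicarbonate cotransporter, rose in both lines, by 0.24 in CAL-27 and 0.25 in SCC-15 (edgeR adjusted p = 0.00111 and 0.000155). SLC5A6, the sodium-dependent vitamin transporter, fell in CAL-27 by 0.30 and rose in SCC-15 by 0.29 (edgeR adjusted p = 4.37e-05 and 4.94e-06). OXSR1, a kinase that acts on the SLC12 cotransporters, fell in SCC-15 by 0.27 (edgeR adjusted p = 1.67e-05). In CAL-27 it was at -0.10 (0.206).

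Of 17 genes of calcium release, entry and removal, all tested, 2 rose and 3 fell in CAL-27, or 29.4%, near the 27.3% of all genes tested. In SCC-15, 5 rose and 4 fell, or 52.9% against 27.7%. Their median log2 fold changes were -0.02 and 0.10. P2RY2, a nucleotide receptor that releases stored calcium and thereby opens ANO1 in many epithelia, rose in CAL-27 from 19.9 ± 0.255 to 31.8 ± 1.00 CPM (SD, n = 3; 0.68 ± 0.077, edgeR adjusted p = 1.97e-11) and fell in SCC-15 from 28.8 ± 2.40 to 16.3 ± 0.496 CPM (-0.82, 5.75e-14). The calcium pump gene ATP2B1 fell in both lines, by 0.47 and 0.37 (edgeR adjusted p = 2.97e-14 and 1.5e-09). ATP2B4, another such pump, rose in CAL-27 by 0.67 (edgeR adjusted p = 2.19e-15) and was at 0.02 in SCC-15 (0.830).

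The store-operated channel gene ORAI1 fell in CAL-27 by 0.35 (edgeR adjusted p = 6.32e-05) and was at -0.03 in SCC-15 (0.768). In SCC-15, the calcium sensor genes STIM1 and STIM2 went apart, with a rise of 0.28 and a fall by 0.50 on the log2 scale (edgeR adjusted p = 1.53e-05 and 8.09e-08). In CAL-27 they were at -0.02 and -0.03 (0.875 and 0.851). ITPR1, a calcium release channel, rose in SCC-15 by 0.33 (edgeR adjusted p = 0.00785), a call lost without SCC-15 shTTK library 3 (0.0756), and was at 0.15 in CAL-27 (0.378). Without SCC-15 control library 3, the count of 2 higher genes in CAL-27 was 4.

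The genes most like ATP1B1 in level over the 12 libraries, by Pearson's r of log2 CPM, were KDELR2, a receptor that returns proteins to the endoplasmic reticulum (r = 0.9987), TMEM33 (0.9987) and GNA12, a G protein subunit (0.9985). The most like ANO1 were IGSF3 (0.9886), GPR153 (0.9867) and KIAA1522 (0.9831). The libraries fall into 2 lines that differ in most genes, and r takes in both this difference and the knockdown. The part of each was not tested, and these values are a description with no test. With knockdown, KDELR2, TMEM33 and GNA12 fell in CAL-27 by 0.27, 0.25 and 0.42, and IGSF3, GPR153 and KIAA1522 rose by 0.30, 0.33 and 0.19. In SCC-15 the first 3 fell by 0.24, 0.33 and 0.34, and the others rose by 0.32, 0.23 and 0.20. These genes were picked by r over all 12 libraries, the shTTK libraries included, so their knockdown values are also given with no test. Each of these changes was smaller than that of the gene it resembles.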

How the data were processed

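The authors deposited 1 table of whole-number counts, not normalized, with a line for each gene name and a column for each of the 12 libraries. Per the submitters' processing notes, the tools were featureCounts 2.0.1, STAR 2.7.7a and Trim Galore 0.6.6, and the build was hg38. Per the labels' protocols, libraries were poly(A)-selected, strand-specific (dUTP) and read as paired ends of 150 bases. Which annotation featureCounts used, and how it handled strand and multiply placed reads, is not given in the sources used here. Of 58735 lines, 58708 find their symbol in GENCODE release 29 (GRCh38), which gave coordinates and exon lengths; promoters are from RefSeq (GRCh38.p14), where all 5 genes matched. No column was without a sample (0 columns).

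Genes were kept with filterByExpr (16946). Scaling was TMM, and the 4 group means were estimated by the robust quasi-likelihood method of edgeR 4.0.16 (under R 4.3.3, with limma 3.58.1), leaving 8 residual degrees of freedom. Tests are two-sided, Benjamini-Hochberg adjusted over all genes tested, and called under 0.05. An SE is the size of the log2 value over the square root of its F statistic. Levels per kilobase use the union of a gene's exons, so a group's isoforms could shift them. The fit was also run on simulated counts with no difference between the lines and a common spread for all genes. These data are not of that kind, so that run does not bear on the results.

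The 5 genes, the 12 gene lists and the tests were chosen with earlier results of these data known. Of 140 list genes, all were matched, 1 by an older symbol. Named were TTK, every pump, FXYD and anoctamin gene with a mean of at least 1 CPM in a group, of the other lists up to 2 called genes per line and direction with the largest change (no overlap, and 5 CPM or more where higher), the 3 genes most like ATP1B1 and ANO1 (mean of at least 5 CPM, prior count 2), and the nearest tested protein-coding genes; some genes under this rule are not reported here. Alternatives were RLE scaling, DESeq2 1.42.0, limma-voom, other filters, a block for the replicate number, each line by itself, and fits without 1 library or without both SCC-15 libraries numbered 1.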

Additional observations from a re-analysis of the deposited data

Results flagged for a closer look

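The changes with knockdown differed between the lines for several genes. FXYD5 was lower in all CAL-27 and higher in all SCC-15 shTTK libraries than in their controls, with a difference of 0.45 on the log2 scale that was not tested. The other genes given here are only those past the threshold in edgeR's test of the interaction, which called 25.4% of all genes tested. Most were named for a large change in a line, and other named genes, such as ANO9 (edgeR adjusted p = 0.931), were not called. By list, the test called 50% of 22 chloride genes, 31.6% of 19 of sodium entry and 58.8% of 17 of calcium. The share was 16.7% of 6 other anoctamins and 37.5% of 8 genes in the 11q13 and in the FXYD region. The difference, SCC-15 less CAL-27, was -0.67 for TTK and 0.32 for ANO6. Among chloride routes it was -0.40 for CLCN3, 0.44 for CLCN5, 0.31 for CLCN6, -0.57 for LRRC8C, 0.64 for SLC12A4 and 0.54 for SLC12A7. Among genes of sodium entry it was 0.47 for SCNN1A, 0.73 for SGK1, 0.87 for SLC5A3 and 0.59 for SLC5A6. Among calcium genes it was -0.65 for ATP2B4, 0.32 for ORAI1, -1.50 for P2RY2, 0.29 for STIM1 and -0.47 for STIM2. Among neighbours of the 5 genes it was 0.68 for CCND1, 0.55 for MYEOV, 0.19 for PPFIA1, 0.42 for TMEM147 and 0.19 for USF2.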

How the results depend on the processing

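The 4 calls between the control groups (ATP1B1, ATP1B3, FXYD5 and ANO1) kept their direction and stayed under 0.05 in every alternative run, and FXYD3 was called in none. Without both SCC-15 libraries numbered 1, the SCC-15 knockdown value was -0.75 for ATP1B1 and 0.51 for ANO1, and the difference (SCC-15 less CAL-27) was 0.06 for ATP1B1, 0.12 for ATP1B3, 0.41 for FXYD5 and -0.27 for ANO1. With CAL-27 fitted alone and with every gene that has a read, the CAL-27 value was -0.09 for ATP1B3 and -0.23 for FXYD5, and the SCC-15 value of ATP1B3 was 0.01 with every gene that has a read; the cause was not tested. Without 1 library at a time, the CAL-27 value lay between -0.84 and -0.77 for ATP1B1, -0.13 and -0.09 for ATP1B3, and -0.26 and -0.22 for FXYD5, and the difference between lines between 0.08 and 0.12 for ATP1B3 and 0.39 and 0.49 for FXYD5; SCC-15 values lay between 0.64 and 0.92 for ANO1. Deviations of same-numbered libraries from their group means had correlations from -0.031 to 0.021. The shTTK groups of the lines were not compared with each other in this way. Such values cannot tell whether same-numbered libraries shared a culture, a day or a run. With the replicate block, ATP1B1 was at -0.81 and -0.83, ANO1 at 0.78 and 0.77, and the counts of called genes stayed within 1.5 times; among named genes only the SCC-15 call of TFDP2 was lost (adjusted p = 0.0529). Counts of 62 to 142 for FXYD3 and 73 to 178 for ANO1 in SCC-15 limit the precision of their values.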
